A study of Mus musculus with 4 samples.

Results

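Interferon-responsive microglia are microglia that carry high levels of interferon-stimulated transcripts, and 414 such cells were found among the 20437 barcodes of 4 single-cell RNA libraries of mouse brain. A cell entered the group when it had at least 500 genes, at least 1000 unique molecular identifiers (UMIs, the count of captured transcripts) and at most 10% mitochondrial UMIs. It also had to hold at least 30 UMIs per 10000 over the 6 microglial genes P2ry12, Tmem119, Siglech, Fcrls, Olfml3 and Selplg, at least 10 per 10000 over the 5 interferon genes Ifit1, Ifit2, Ifit3, Rsad2 and Isg15, and under 3 per 10000 over the cycling genes Mki67, Top2a and Birc5. They were compared with interferon-low microglia, 10898 cells of the same microglial and cycling limits with under 2 per 10000 of the 5 interferon genes. The members were thus selected on the measured values of these 14 genes, whose values describe the groups and carry no test.

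The cells came from Tmem119-2A-CreERT2;Ai6 mice, in which a tamoxifen-inducible Cre made from the Tmem119 locus switches on the green fluorescent reporter ZsGreen, so all groups shared the driver and the reporter. Stroke mice had a lasting ligation of their right middle cerebral artery (pMCAO), sham mice had similar surgery with no ligation, and tissue was taken on day 3. For each of female stroke, male stroke, female sham and male sham, ipsilateral hemispheres of 4 mice were pooled, enriched on Percoll, sorted for live ZsGreen+ cells and run as 1 library of 10x Genomics 3' v3.1 chemistry. The labels give neither the age of the mice nor the tamoxifen schedule. A pool is 1 sample, so 2 stroke pools stand against 2 sham pools, of different sex within each treatment, and the spread between mice is unknown.

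Type I interferons bind the receptor IFNAR1-IFNAR2, whose kinases JAK1 and TYK2 phosphorylate STAT proteins. With IRF9 these form the complex ISGF3, which binds interferon-stimulated response elements in DNA and raises a large set of antiviral genes. Microglia, the resident macrophages of the brain, switch on this set in ageing, infection, demyelination and ischemia, often in a minority of cells.

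The core of the response element, GAAA and GAAA with any 2 bases (NN) between them, or TTTC and TTTC spaced likewise for the other strand, was searched in the 250 bases before the transcription start in the RefSeq promoter table of GRCm38.p6. The windows shown are those of 4 of the 5 genes that chose the cells and of Cxcl10, the chemokine with one of the largest differences below. Capitals mark every base inside a match, matches may overlap, and the distance is counted back from the start.
Ifit1, chr19:34640769-34640828, plus strand: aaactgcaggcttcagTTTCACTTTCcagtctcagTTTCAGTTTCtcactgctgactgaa
Ifit3, chr19:34583365-34583424, plus strand: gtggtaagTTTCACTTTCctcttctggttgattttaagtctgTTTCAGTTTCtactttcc
Rsad2, chr12:26456538-26456597, minus strand: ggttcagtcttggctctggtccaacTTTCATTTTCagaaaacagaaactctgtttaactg
Isg15, chr4:156200856-156200915, minus strand: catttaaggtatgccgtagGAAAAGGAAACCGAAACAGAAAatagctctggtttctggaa
Cxcl10, chr5:92349068-92349127, minus strand: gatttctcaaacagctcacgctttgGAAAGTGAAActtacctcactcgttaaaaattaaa
The Ifit1 matches lay between 76 and 104 bases before the start, those of Ifit3 between 113 and 156, that of Rsad2 between 111 and 120, the 3 overlapping Isg15 matches between 57 and 78, and that of Cxcl10 between 204 and 213. The neighbouring copy Ifit3b held the same 60 bases as Ifit3, with 0 mismatches, at chr19:34607761-34607820. The windows of Ifit2 held no match. Of all 32851 promoter windows, 2.98% held the core. Of the genes with a window, 54 of 264 (20.5%) of those called higher in interferon-high cells by a log2 fold of at least 1 held it, against 255 of 9159 (2.78%) of the genes not called. A match is a description of letters and not evidence of binding.

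The deposited matrices held 66072270 UMIs in the female stroke pool, 52733857 in male stroke, 29581392 in female sham and 40970923 in male sham. No male sham barcode held fewer than 4198 UMIs, while the other matrices reached down to 500 or 501, and the male sham matrix had exactly 5000 barcodes. Shallow cells are therefore missing from that pool alone. Any pair of pools shared 4 to 11 cell barcodes. Median mitochondrial shares in interferon-high cells were 5.18% and 4.62% in the female and male stroke pools and 1.83% and 1.18% in the female and male sham pools. In interferon-low cells they were 4.67% and 4.24% in stroke and 2.08% and 1.19% in sham, so both classes differed between treatments. The mitochondrial limit was not varied on its own. A setting of stricter quality limits combined at most 5% mitochondrial UMIs with at least 2000 UMIs per cell.

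Interferon-high cells were a larger share of microglia in both stroke pools than in both sham pools. They were 166 of 2674 non-cycling microglia in female stroke, 6.21% (95% exact binomial interval 5.32 to 7.19), and 187 of 2538 in male stroke, 7.37% (6.38 to 8.45). In sham they were 29 of 3174 in females, 0.914% (0.613 to 1.31), and 32 of 4100 in males, 0.780% (0.534 to 1.10). The stroke share was 6.79 times the sham share in females and 9.44 times in males. The intervals cover counting error only.

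The mean over pools was 6.79% ± 0.820 in stroke and 0.847% ± 0.0942 in sham (SD, n = 2 pools each). An exact permutation test of 2 pools against 2 gave a two-sided p of 0.333, the smallest that this design allows. The stroke pools did not overlap the sham pools. With every cell thinned to 4000 UMIs and shallower cells left out, the shares were 8.43% and 9.67% in female and male stroke, and 1.10% and 0.974% in female and male sham. With the lowest male sham UMI count as the minimum in all pools they were 6.73% and 8.18% in stroke, and 0.940% and 0.780% in sham.

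**Figure D1:**
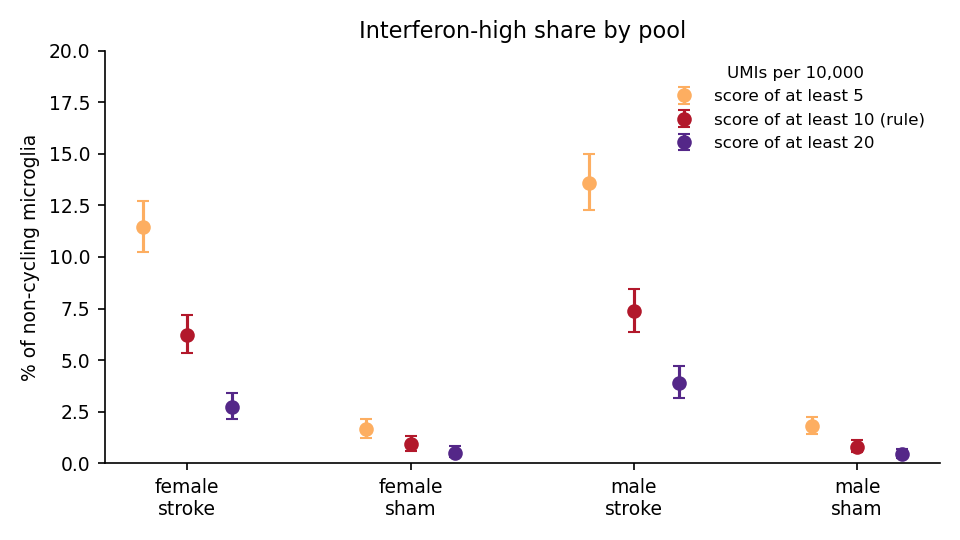
Share of interferon-high cells among non-cycling microglia (%, y axis) in each pool (x axis), at interferon scores of at least 5, 10 and 20 UMIs per 10000, with exact 95% binomial intervals as bars. At the limit of 10 the stroke pools stand at 6.21% and 7.37% and the sham pools at 0.914% and 0.780%.

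In the share plot both stroke pools stand above both sham pools at all 3 limits of the interferon score, while female sham lies below male sham at 5 and above it at 10 and 20. At a score of at least 5 the shares were 11.4% and 13.6% in female and male stroke, and 1.64% and 1.78% in female and male sham. At 20 they were 2.73% and 3.9% in stroke, and 0.504% and 0.439% in sham. The score is a range and not a boundary between types: 43 and 54 stroke cells scored from 8 to under 10, against 37 and 32 from 10 to under 12. The antiviral genes outside the rule summed to 6177 and 6849 unscaled CPM (counts per unit of library total, without TMM scaling) in the stroke cells just below the limit, and to 6540 and 7553 CPM in those just above it. In sham 1 and 8 cells lay just below and 6 and 6 just above, with 5937 and 6368 CPM below and 9143 and 7016 CPM above.

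Cells of other types gave the background. Among cells under the microglial score with markers of choroid plexus or oligodendrocytes, 0 of 92 in female stroke and 0 of 45 in male stroke reached an interferon score of 10, which allows up to 3.26% and 6.67%. In sham it was 0 of 354 in females and 0 of 512 in males, which allows up to 0.847% and 0.586%. At least 1 UMI of the 5 genes was found in 25% and 11.1% of these stroke cells and in 4.52% and 5.47% of these sham cells. In interferon-low microglia it was found in 21.1% and 21.0% of stroke cells and in 7.13% and 7.57% of sham cells. The 5 genes summed to 31.2 and 33.6 unscaled CPM in stroke and 11.6 and 12.95 CPM in sham interferon-low microglia, against 16.0 and 4.80 CPM in stroke and 7.01 and 3.89 CPM in sham choroid and oligodendrocyte-marker cells. Interferon-low microglia thus stood above these cells in every pool by summed level, and in every pool but female stroke by share of cells with a UMI. Median depths of the choroid and oligodendrocyte-marker cells were 19132 and 23571 UMIs in stroke and 2550 and 22420 in sham, against 7354 and 7252 in stroke and 6209 and 5457 in sham interferon-low microglia.

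Most members held UMIs of several genes of the rule, while all 5 were found in 67 of 166 and 90 of 187 members in stroke and 7 of 29 and 8 of 32 in sham, a minority in each pool. At least 3 of them had a UMI in 89.8% of female stroke, 96.8% of male stroke, 86.2% of female sham and 96.9% of male sham members. Isg15, a ubiquitin-like protein that is attached to other proteins, had a UMI in 92.2% and 94.7% of stroke members and in 93.1% and 100% of sham members. Ifit3, a member of a family that binds viral RNA, had one in 90.4% and 95.7% of stroke and in 89.7% and 96.9% of sham members. Rsad2, which makes a chain-terminating nucleotide, was less widely found in sham: 70.5% and 74.3% of stroke members, against 37.9% and 37.5% of sham members. By level, Rsad2 was at 391 and 400 unscaled CPM in stroke members and at 125 and 139 CPM in sham members. Median depth of these members was 9586 and 10111 UMIs in stroke and 5522 and 5482 UMIs in sham. Shares of cells with a UMI depend on depth, and its part in the Rsad2 shares was not tested.

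The microglial label was checked on ZsGreen and on the microglial genes Gpr34, Cx3cr1 and Sall1 outside the rule. Gpr34 was lower in interferon-high than in interferon-low cells, Cx3cr1 and Sall1 were not called, and all 3 log2 differences were below 0. Gpr34, a lysophospholipid receptor, was at 1526 and 1242 CPM in stroke members and 1506 and 1617 CPM in sham members, against 1620.3 and 1594 CPM in stroke and 2296 and 2112 CPM in sham interferon-low cells. Its log2 difference was -0.35 ± 0.07 (SE, edgeR adjusted p = 0.00012), and it was lower in 4 of 4 pools. ZsGreen was at 1823 and 1609 CPM in female and male stroke members and at 652 and 626 CPM in female and male sham members, against 1752 and 1628 CPM in stroke and 567 and 623 CPM in sham interferon-low cells. The ZsGreen difference was 0.06 ± 0.08 (log2 ± SE, edgeR adjusted p = 0.81). Cx3cr1, the fractalkine receptor gene, was at 2326 and 2344 CPM in stroke members and 4792 and 3792 CPM in sham members, against 2561 and 2629 CPM in stroke and 5086 and 3939 CPM in sham interferon-low cells, a log2 difference of -0.11 ± 0.07 (edgeR adjusted p = 0.42). These and later levels are CPM of UMIs summed per pool and class, scaled by TMM, except where said to be unscaled. Since 3' counts do not grow with transcript length, levels are compared only within a gene.

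Markers of other immune cells were present in members. Monocyte markers were spread over cells except in male sham, and several other classes lay mostly in single cells. Monocyte and macrophage markers summed to 364 and 129 unscaled CPM in stroke members and 114 and 161 CPM in sham members, against 104 and 71.4 CPM in stroke and 14.9 and 22.2 CPM in sham interferon-low cells. A single cell held 19.9% and 6.44% of these UMIs in stroke members and 23.8% and 67.6% in sham members. Ms4a4c alone gave 158 of 644 and 179 of 264 of these UMIs in female and male stroke members. In female and male sham members it gave 17 of 21 and 28 of 37. Whether Ms4a4c marks monocytes in these cells was not tested. Of 8 such markers Ms4a4c, Plac8 and Arg1 were higher, by 3.40, 2.21 and 1.03 on the log2 scale, and 5 were not called, the lowest at -1.09. Only 1 of the 8 was higher in all 4 pools. Arg1 had 0 UMIs in the members of both sham pools and Plac8 0 in those of male sham. Of 4 tested neutrophil markers S100a8, S100a9 and Cxcr2 were higher, by 1.82, 1.98 and 1.73, with Cxcr2 at 0 UMIs in the members of both sham pools. T and NK cell markers other than Il7r and Cd3d were at 0 in every pool's interferon-high cells. Neutrophil markers summed to 215 and 229 unscaled CPM in stroke members and to 10.9 and 30.5 CPM in sham members, against 143 and 21.9 CPM in stroke and 5.70 and 16.7 CPM in sham interferon-low cells, and 1 cell held 95.5% of these UMIs in female stroke and 63.5% in male stroke. Dendritic cell markers summed to 20.9 and 12.2 unscaled CPM in stroke members and to 32.6 and 1581 CPM in sham members, against 72.8 and 72.9 CPM in stroke and 96.5 and 132 CPM in sham interferon-low cells, and 1 male sham cell held 96.4% of that pool's marker UMIs. Border macrophage markers summed to 140.0 and 25.8 unscaled CPM in stroke members and to 0 and 331 CPM in sham members, against 74.0 and 57.0 CPM in stroke and 38.4 and 46.4 CPM in sham interferon-low cells. A further setting left out the cells that hold at least 3 UMIs of markers of other immune cells. Lag3 and Tcf4 were left aside, since interferon-low microglia hold them too. The shares were then 4.11% and 5.67% in female and male stroke and 0.793% and 0.703% in female and male sham. This kept 76 and 107 stroke and 23 and 26 sham members. Of interferon-low cells it kept 1525 and 1495 in stroke and 2788 and 3478 in sham. The markers used include Ms4a4c and Plac8, which were higher in interferon-high cells. How many members were left out for such genes, and not as other cell types, was not tested.

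Across the genome, interferon-high cells differed from interferon-low cells of the same pools in both directions, with more genes higher than lower among the large differences. Of 13022 genes tested with edgeR's quasi-likelihood test and pool as a block, 1006 (7.73%) passed an adjusted p of 0.05, 644 (4.95%) higher and 362 (2.78%) lower. DESeq2 called 488 higher and 57 lower, and library totals without TMM scaling called 565 higher and 593 lower, so the count of lower genes moves with the scaling. By a log2 difference of at least 1 in size, 341 were called higher and 65 lower. Over all tested genes the median was -0.08, with 7.86% higher and 18.2% lower in all 4 pools. Without the cells with markers of other immune cells it was 428 higher and 140 lower, and without either stroke pool 398 to 425 higher and 103 to 139 lower. With Lag3 and Tcf4 counted as markers as well, 110 were higher and 15 lower, and Irf1, Uba7, Socs1, B2m, H2-K1, Tnf and Tnfsf10, given below, were no longer called. The classes were cut from 5 co-induced genes of the same cells, so these calls describe which other genes vary with them from cell to cell. They are not a response to a treatment.

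Antiviral effectors moved together with the rule's genes. Of 45 tested genes of an antiviral list, none of which chose the cells, 45 were higher, with a median log2 difference of 2.92 against -0.08 over all tested genes. Their summed level was 10948 and 12298 CPM in female and male stroke members and 10399 and 9720 CPM in female and male sham members, against 2459 and 2563 CPM in stroke and 1655 and 1654 CPM in sham interferon-low cells. Every interferon-high sum was above every interferon-low sum. Without the cells with markers of other immune cells 45 of 45 were again higher. Per cell, the antiviral median was 90.2 and 99.9 UMIs per 10000 in stroke members and 99.9 and 102 in sham members, against 20.2 and 20.3 in stroke and 17.3 and 16.7 in sham interferon-low cells.

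**Figure D2:**
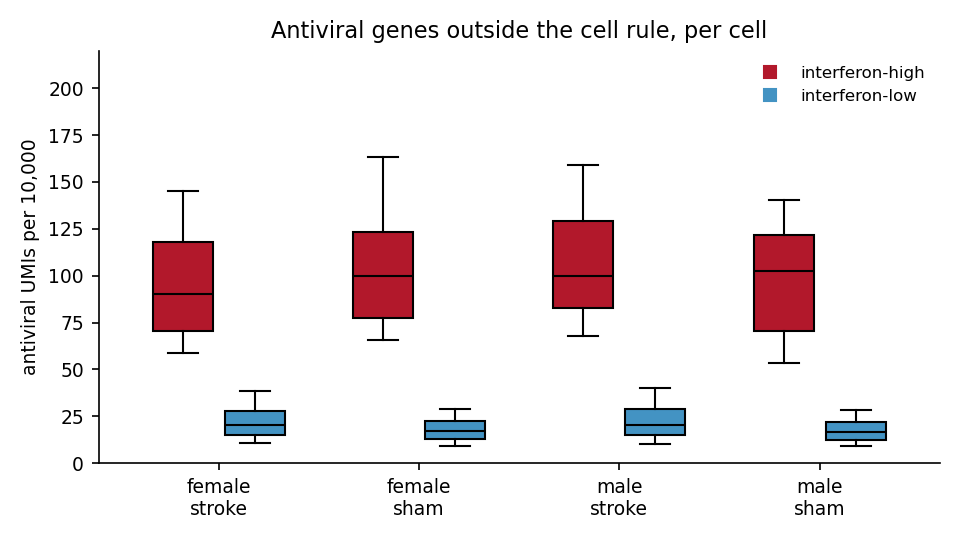
UMIs of 47 antiviral genes outside the cell rule per 10000 UMIs of a cell (y axis), in interferon-high (red, left) and interferon-low (blue, right) microglia of each pool (x axis). Boxes span the quartiles with the median as a line and whiskers the 10th to 90th percentiles over cells. The medians lie at 90.2 to 102 in the interferon-high boxes and at 16.7 to 20.3 in the interferon-low boxes.

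The plot of antiviral UMIs per cell shows members of stroke and sham pools over the same range. For an equal depth the classes were set again on counts thinned to 4000 UMIs. The median number of antiviral genes detected in an interferon-high cell was then 18 and 20 in female and male stroke. In female and male sham it was 20 and 19. Of these cells 135 of 191 and 152 of 210 in stroke were members on all UMIs, and 24 of 30 and 31 of 40 in sham. In interferon-low cells of the thinned counts the median was 6 and 6 in stroke and 6 and 5 in sham.

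Oasl2 and Oasl1, relatives of the RNA-sensing oligoadenylate synthetases, were among the named genes. Oasl2 (chr5:114896936-114912234, GRCm38, plus strand) was at 298 and 329 CPM in stroke members and 422 and 151 CPM in sham members, against 11.9 and 13.9 CPM in stroke and 2.09 and 2.57 CPM in sham interferon-low cells. Its log2 difference was 5.23 ± 0.14 (edgeR adjusted p = 6.8e-92). Every interferon-high pool stood above every interferon-low pool.

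Bst2, which tethers budding virions to the cell surface, was measured in both classes. It was at 1259.6 and 1465 CPM in stroke members and 1113 and 1314 CPM in sham members, against 315 and 367 CPM in stroke and 137 and 172 CPM in sham interferon-low cells, a log2 difference of 2.45 ± 0.09 (edgeR adjusted p = 5.7e-71). The highest log2 differences of the list were those of Ifit1bl1 (8.55 ± 0.51) and Ifit3b (7.68 ± 0.16). Ifit3b shares near-identical sequence with Ifit3, so reads may be split between these copies and their separate levels are uncertain. The same holds for Oas1a and Oas1g.

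Among the 20 genes named for the highest differences were also Ifi44 at 6.28, Cmpk2, a mitochondrial nucleotide kinase beside Rsad2, at 5.93, Isg20, an RNA exonuclease, at 4.89, Phf11a at 4.82 and Cd69, an early activation marker, at 5.12. Gm13822, annotated as an antisense gene, was at 7.27, and its reads may not be told apart from those of a gene on the other strand. Cd69 was uneven between treatments, with 38.2 and 47.6 CPM in stroke members and 4.91 and 16.8 CPM in sham members, against 1.63 and 1.22 CPM in stroke and 0.0464 and 0.158 CPM in sham interferon-low cells. Its sham member levels rest on 1 UMI in females and 4 in males, found in 3.45% of 29 and 3.125% of 32 cells.

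Of 8 receptor and kinase genes of the pathway 0 were higher and 1 was lower, counts that 8 genes cannot set apart from the 4.95% higher and 2.78% lower over all tested genes. DESeq2 gave the same counts, and 3 of the 8 had an unadjusted p under 0.05 in edgeR. Ifnar1 was at 61.5 and 61.4 CPM in stroke members and 78.5 and 63.0 CPM in sham members, against 73.1 and 67.4 CPM in stroke and 60.8 and 54.6 CPM in sham interferon-low cells, and the pools of the classes overlapped. Its log2 difference was -0.08 ± 0.14 and that of Ifnar2 0.01 ± 0.09 (edgeR adjusted p = 0.87 and 0.99). The lower gene was Ifngr1, which encodes a chain of the interferon gamma receptor, at -0.45 ± 0.08 (edgeR adjusted p = 2.8e-06).

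Of 14 STAT and IRF genes, 5 were higher and 0 lower, with Irf7, Stat2, Irf1 and Irf9 among those higher. Irf7, the factor that drives later interferon production, was at 320.2 and 389.5 CPM in stroke members and 196 and 252 CPM in sham members, against 13.3 and 17.7 CPM in stroke and 1.95 and 3.44 CPM in sham interferon-low cells. Its log2 difference was 4.99 ± 0.13 (edgeR adjusted p = 1.5e-96), and it was higher in 4 of 4 pools. Stat2 differed by 3.15 ± 0.13 and Irf9, its partner in ISGF3, by 0.96 ± 0.13.

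The feedback regulators Usp18 and Socs1 were the 2 of 8 tested inhibitors that were higher. Usp18 removes ISG15 from proteins and blocks IFNAR2 signalling. It was at 173 and 241 CPM in stroke members and 191 and 189 CPM in sham members, against 6.89 and 7.0 CPM in stroke and 2.93 and 2.93 CPM in sham interferon-low cells, a log2 difference of 5.26 ± 0.15 (edgeR adjusted p = 1.0e-86). Socs1, which binds JAK kinases, differed by 2.66 ± 0.23. All 5 tested genes of ISG15 conjugation were higher, from 1.33 ± 0.15 for Uba7, the activating enzyme, to Usp18. Between them stood Herc6, the ligase of the mouse, at 2.94 ± 0.12.

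**Figure D3:**
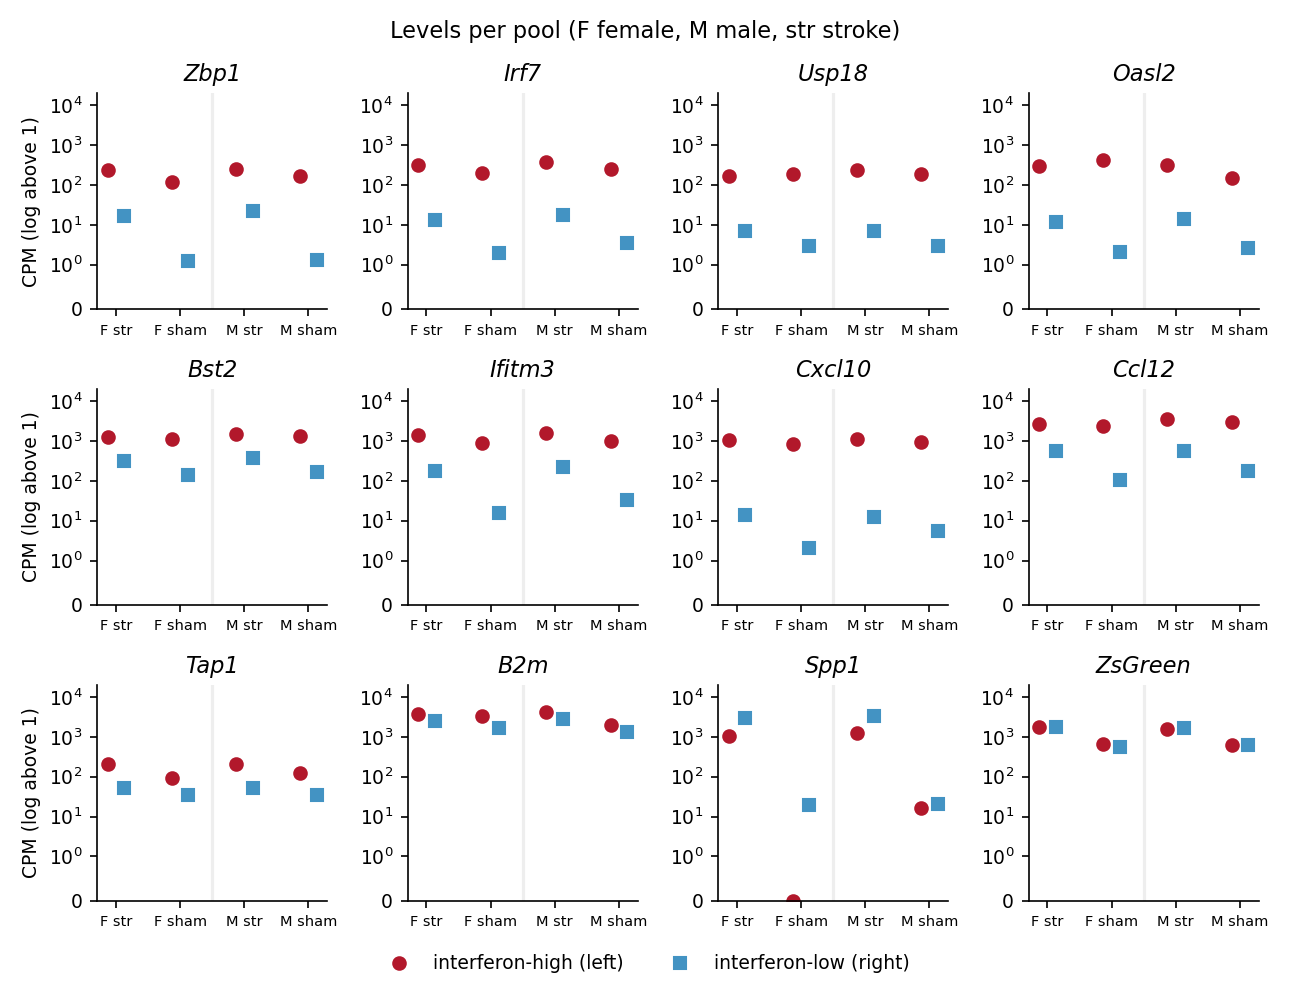
TMM-scaled CPM (y axis, logarithmic above 1) of 12 genes in interferon-high (red circles, left) and interferon-low (blue squares, right) microglia of the 4 pools (x axis), 1 point per pool and class. Irf7 stands at 196 to 389.5 CPM in the interferon-high and at 1.95 to 17.7 CPM in the interferon-low points, and ZsGreen at 626 to 1823 CPM in the interferon-high and at 567 to 1752 CPM in the interferon-low points.

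The plot of levels per pool sets Irf7 and Usp18 beside sensors, effectors, chemokines and genes that were not called. In it the interferon-low points of Irf7, Oasl2, Ifitm3 and Ccl12 lie higher in stroke than in sham, while the interferon-high points lie closer together on the logarithmic axis.

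The Ifi200 genes, a family with nucleic acid sensors in a cluster on chromosome 1, were higher in 12 of 12 tested members, with a median log2 difference of 4.86. Ifi204 was at 634 and 689 CPM in stroke members and 579 and 516 CPM in sham members, against 52.4 and 60.6 CPM in stroke and 10.1 and 13.2 CPM in sham interferon-low cells, a log2 difference of 4.30 ± 0.12 (edgeR adjusted p = 1.5e-91). Ifi208 differed by 8.52, Ifi206 by 7.01, Ifi213 by 6.23, Ifi211 by 6.06 and Ifi214 by 5.19, while Aim2, which senses cytosolic DNA, differed by 0.44 and was not called without male stroke. The members are close in sequence, so counts may be split between them.

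Interferon-inducible GTPases, which attack the vacuoles of pathogens, were higher in 14 of 15 tested genes, with Gbp8 not called. Iigp1 was at 162 and 215 CPM in stroke members and 118 and 37.8 CPM in sham members, against 0.729 and 1.34 CPM in stroke and 0.464 and 0.396 CPM in sham interferon-low cells, a log2 difference of 7.47 ± 0.20 (edgeR adjusted p = 1.0e-93). It was the least even of the GTPases named here, with male sham lowest. Ifi47 differed by 5.48 ± 0.31 and Irgm1 by 2.90 ± 0.10. Tgtp2 and the Gbp genes have close copies, and their separate levels are uncertain.

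Of 19 nucleic acid sensors 10 were higher, among them the cytosolic RNA sensors Ddx58 (RIG-I) at 2.80 ± 0.13 and Ifih1 (MDA5) at 2.73 ± 0.14 and the Z-nucleic acid sensor Zbp1 at 4.28 ± 0.17. Zbp1 was at 242 and 255 CPM in stroke members and 123 and 168 CPM in sham members, against 17.2 and 22.3 CPM in stroke and 1.21 and 1.35 CPM in sham interferon-low cells. The adaptors Mavs, at -0.32, and Tmem173 (STING), at -0.01, were not called.

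The Ifitm and Ifi27 genes were mixed, with 3 of 7 tested genes higher and 1 lower. Ifitm3 (chr7:141009586-141010770, GRCm38, minus strand), which blocks fusion of viral with cell membranes, was at 1399 and 1584 CPM in stroke members and 888 and 1008 CPM in sham members, against 174 and 217 CPM in stroke and 15.5 and 32.8 CPM in sham interferon-low cells. Its log2 difference was 3.97 ± 0.13 (edgeR adjusted p = 1.9e-79). Ifi27l2a differed by 2.45 ± 0.12, Ifi30, a lysosomal thiol reductase, by 0.26, and Ifi27 by -0.62. Ifi30 was not called by DESeq2 or with library totals, nor Ifi27 without female stroke.

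Antigen presentation on MHC class I differed by smaller steps in most genes. Of 21 tested genes 20 were higher, with a median of 0.96, and Erap1 was not called at 0.19. Tap1, which carries peptides into the endoplasmic reticulum, was at 213 and 211 CPM in stroke members and 93.2 and 126 CPM in sham members, against 51.8 and 52.7 CPM in stroke and 33.8 and 34.1 CPM in sham interferon-low cells, a log2 difference of 1.94 ± 0.11 (edgeR adjusted p = 3.5e-41). B2m differed by 0.65 ± 0.07, H2-K1 by 0.96 ± 0.08 and the class I transactivator Nlrc5 by 3.51 ± 0.29. Reads of the H2 genes may be split between near-identical copies.

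MHC class II genes were called in 0 of 10 by edgeR, with 3 of 10 at an unadjusted p under 0.05, and in 0 of 10 by DESeq2, against 7.73% of all tested genes by edgeR. Without female stroke, female sham or male stroke edgeR called 4 higher, and without male sham 4 lower. H2-Aa was at 9.70 and 4.98 CPM in stroke members and 4.91 and 739 CPM in sham members, against 39.5 and 38.4 CPM in stroke and 41.3 and 57.6 CPM in sham interferon-low cells. A single male sham cell held 168 of the 176 H2-Aa UMIs (95.5%) and 612 of the 677 Cd74 UMIs (90.4%). Without the male sham pool the log2 differences of H2-Aa and Cd74 were -2.42 and -1.10, against 0.43 and 0.53 with it.

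**Figure D4:**
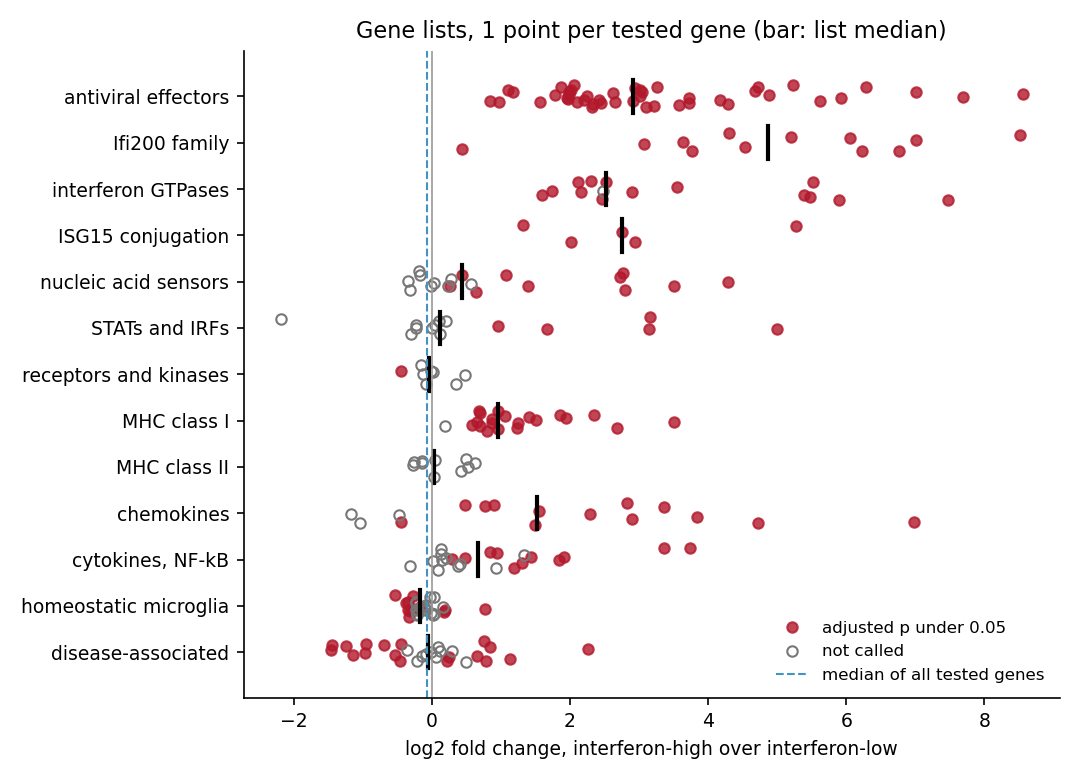
Log2 difference of interferon-high over interferon-low microglia (x axis) for the tested genes of 13 lists (y axis), 1 point per gene, filled where the edgeR adjusted p was under 0.05. Black bars are list medians, the dashed line the median of all tested genes, and Ccl8, at 0 UMIs in all interferon-high cells, is not drawn. All 45 antiviral and 12 Ifi200 points are filled and to the right of 0.

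The plot of gene lists runs from the antiviral list to the disease-associated genes, whose points lie on both sides of 0. Of 17 tested chemokines 12 were higher and 2, Ccl6 and Ccl8, lower. DESeq2 called 9 higher and 0 lower. Ccl8 had 0 UMIs in interferon-high cells of all pools, against 144 in interferon-low cells, at least 2.55-fold lower against a floor of 3 counts over all members.

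Cxcl10, which draws CXCR3-bearing lymphocytes, was at 1065 and 1133 CPM in stroke members and 868 and 928 CPM in sham members, against 14.2 and 12.5 CPM in stroke and 2.09 and 5.46 CPM in sham interferon-low cells. Its log2 difference was 6.99 ± 0.12 (edgeR adjusted p = 9.3e-130). The spread over cells was uneven. A Cxcl10 UMI was found in 27.1% and 33.7% of stroke members and in 13.8% and 15.6% of sham members, and at an equal 4000 UMIs in 23.6% and 30.2% of stroke members and in 8% and 15.6% of sham members. A single cell held 11.3% and 11.5% of the members' Cxcl10 UMIs in stroke, against 94.9% in female sham and 52.5% in male sham. No choroid or oligodendrocyte-marker cell held a Cxcl10 UMI at 4000 UMIs in any pool, and before thinning 2.17% and 6.67% of them did in stroke and 0.282% and 0.195% in sham.

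Ccl12, a ligand of CCR2, was by contrast found in most members: 92.6% and 86.6% in stroke and 72.0% and 84.4% in sham at 4000 UMIs, against 51.9% and 47.6% in stroke and 26.0% and 35.8% in sham interferon-low cells. Before thinning it was 94.6% and 89.3% of stroke members and 72.4% and 84.4% of sham members. At the same 4000 UMIs the choroid and oligodendrocyte-marker cells gave 3.66% and 2.63% in stroke and 0% and 2.54% in sham. Its level was 2634 and 3665 CPM in stroke members and 2443 and 3057 CPM in sham members, against 570.0 and 557 CPM in stroke and 105 and 179 CPM in sham interferon-low cells, a log2 difference of 3.36 ± 0.11 (edgeR adjusted p = 4.2e-79).

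Ccl2, another CCR2 ligand, was at 648 and 839 CPM in stroke members and 93.2 and 307 CPM in sham members, against 189 and 169 CPM in stroke and 15.6 and 34.9 CPM in sham interferon-low cells, a log2 difference of 2.29 ± 0.10 (edgeR adjusted p = 1.5e-56). Cxcl9 was at 8.41 and 8.30 CPM in stroke members and 128 and 0 CPM in sham members, against 0.112 and 0.183 CPM in stroke and 7.25 and 0.0396 CPM in sham interferon-low cells, and all its member UMIs came from at most 3 cells in any pool. Of 22 cytokine and NF-kB genes 11 were higher, led by Cd40 at 3.73 ± 0.44 and Tnfsf10, which encodes TRAIL, at 3.36 ± 0.24. Tnf differed by 1.19 ± 0.20 (edgeR adjusted p = 5.6e-07) and was not called without male stroke, while Il1b, at 0.40 ± 0.35, and Il6, at -0.32 ± 0.30, were not called.

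Interferon genes themselves were nearly absent. Ifnb1 had 4 and 7 UMIs in female and male stroke members, in 3 cells each, and 1 and 0 in female and male sham members. In interferon-low cells it had 0 UMIs in every pool. No UMI of any other listed interferon gene, among them Ifna2, Ifna4 and Ifng, was found in any interferon-high cell, which at this depth limits UMIs and not expression. These genes were not tested.

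Homeostatic microglial genes other than those of the rule shifted slightly, with 3 of 29 higher, 9 lower and a median of -0.17. Library totals called 1 higher and 15 lower, and DESeq2 4 and 5. The largest in size among the listed genes were Gpr84 at 0.77 ± 0.09 and Ltc4s, which makes leukotriene C4, at -0.54 ± 0.08. Gpr84 counts here as a member of the chosen list, and whether it marks a homeostatic state was not tested. Of 28 disease-associated microglial genes 8 were higher and 10 lower, and DESeq2 called 5 and 2. For both lists, the edgeR background over all tested genes was 4.95% higher and 2.78% lower, with a median of -0.08. Axl, a receptor for apoptotic cells, was at 67.3 and 77.5 CPM in stroke members and 63.8 and 79.8 CPM in sham members, against 18.3 and 16.6 CPM in stroke and 11.7 and 7.2 CPM in sham interferon-low cells, a log2 difference of 2.27 ± 0.17 (edgeR adjusted p = 5.3e-29).

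Spp1, the secreted phosphoprotein osteopontin, was among the lower genes. It was at 1051 and 1258 CPM in stroke members against 3039 and 3373 CPM in stroke interferon-low cells, and at 0 and 16.8 CPM in sham members against 19.6 and 21.2 CPM in sham interferon-low cells. The log2 difference was -1.47 ± 0.10 (edgeR adjusted p = 5.3e-30), but -0.16 at a microglial score of at least 60 (edgeR adjusted p = 0.49) and -3.02 with stricter quality limits, and DESeq2 gave an adjusted p of 0.27. Fabp5, a fatty acid carrier, was at 82.8 and 65.8 CPM in stroke members and 0 in both sham pools, against 233 and 124 CPM in stroke and 3.25 and 18 CPM in sham interferon-low cells, at -1.25 ± 0.14, and at -0.09 with a microglial score of at least 60 (edgeR adjusted p = 0.90). The other lower genes named by the rule were Mt2 at -2.05, Snhg11 at -1.57, Ubqln2 at -1.40, Nol4l at -1.35, Enpp2 at -1.31, Actn1 at -1.16, Dab2 at -1.15 and Ttr at -1.08. Of these 10 lower genes, Spp1 and Fabp5 included, DESeq2 called 5, a microglial score of at least 60 left 6, thinning 7, and leaving out all cells with other immune markers 2, Spp1 and Ttr. With Lag3 and Tcf4 left aside Actn1 and Ubqln2 were not called, nor Nol4l at an interferon score of at least 5, nor Actn1 without male stroke. Ttr and Enpp2 are choroid plexus transcripts, whose level in these cells also differed between pools, with Ttr at 206 and 118 CPM in stroke members and 574 and 1365 CPM in sham members, against 291 and 301 CPM in stroke and 1049.9 and 3998 CPM in sham interferon-low cells.

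Whether the step between the classes differed by treatment was tested as the difference of the interferon-high effect, stroke minus sham. Of 13022 genes 85 (0.653%) passed edgeR's adjusted p of 0.05, with 11 (0.0845%) higher and 74 (0.568%) lower, while DESeq2 called 0 higher and 28 lower, with 289 at an unadjusted p under 0.05 in either direction. Without cells with markers of other immune cells edgeR called 3 higher and 23 lower, and without male sham 2 and 29. The antiviral list had 13 of 45 genes with a smaller step in stroke and 0 with a larger one, with a median of -0.42 against 0.08 over all tested genes. DESeq2 called 8 of the 45, as did edgeR without the cells with markers of other immune cells, and edgeR 6 without female sham. Without all cells with other immune markers, Lag3 and Tcf4 included, edgeR called 0 of 42, with 5 at an unadjusted p under 0.05.

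The levels behind the steps were counted by pool. Both stroke pools were above both sham pools for 36 of the 45 antiviral genes in interferon-low cells, against 30.9% of all tested genes, and 40.5% of all tested genes were below. In interferon-high cells this held for 21 of the 45, against 30.2% of all tested genes above and 16.7% below. The step of Ifitm3 differed by -2.40 ± 0.14 (edgeR adjusted p = 5.2e-63), that of Irf7 by -1.84 ± 0.23 and that of Zbp1 by -3.17 ± 0.31. For Zbp1 the stroke over sham levels were 242 and 255 against 123 and 168 CPM in members, but 17.2 and 22.3 against 1.21 and 1.35 CPM in interferon-low cells. The Ifi200 family had a smaller step in 6 of 12 genes, 2 of 10 without the cells with markers of other immune cells and 2 of 12 without male sham, and GTPases in 0 of 15, with 0 of 15 at an unadjusted p under 0.05 in edgeR and 0 called by DESeq2.

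**Figure D5:**
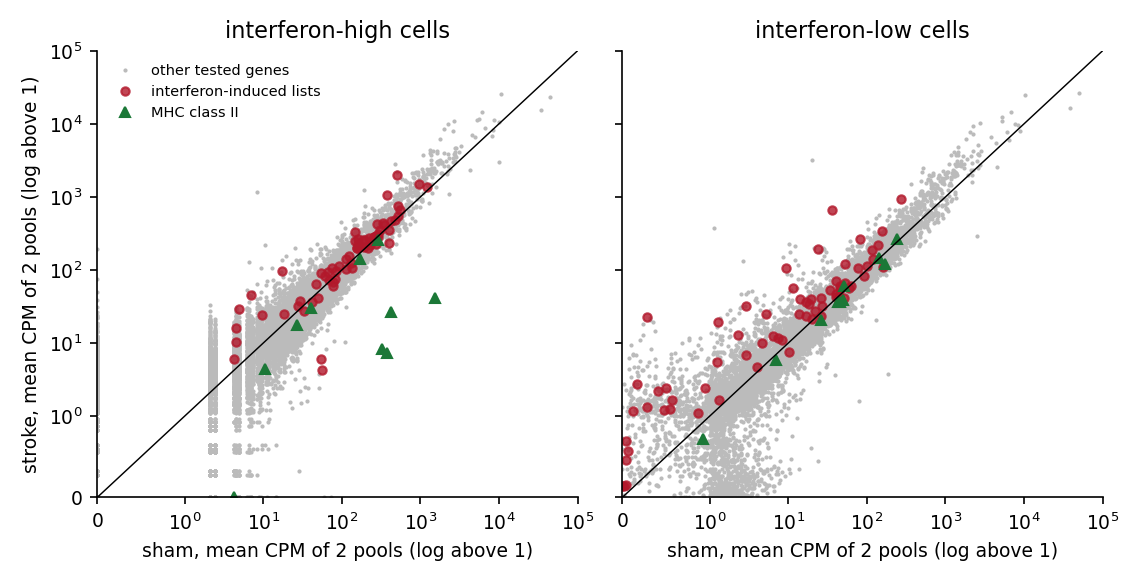
Mean TMM-scaled CPM of the 2 stroke pools (y axis) against that of the 2 sham pools (x axis), both logarithmic above 1, for interferon-high (left) and interferon-low (right) microglia, 1 point per tested gene. Red circles are the antiviral, Ifi200, ISG15 and Ifitm lists, green triangles MHC class II, and the line marks equal levels. Both stroke pools were above both sham pools for 21 of 45 antiviral genes on the left and 36 on the right.

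The plot of stroke against sham levels also shows MHC class II far below the line in interferon-high cells. Cd74, the class II invariant chain, had a step that differed by -4.50 ± 0.15 (edgeR adjusted p = 5.2e-197), H2-Ab1 by -4.21, H2-Aa by -5.24 and H2-Eb1 by -4.92, and the lipid carrier Apoe and the lysozyme gene Lyz2 by -2.29 and -1.99. The male sham cell named above held 92.8% of the H2-Ab1 UMIs and 97.3% of the H2-Eb1 UMIs of that pool's members, and another male sham cell 62.4% of the Apoe UMIs and 68.6% of the Lyz2 UMIs. Without cells with markers of other immune cells, the step differed by -1.20 ± 0.41 for Cd74 (edgeR adjusted p = 0.55), -0.43 for Apoe, -0.21 for Lyz2 and 0.38 for H2-Aa. Ccl12 remained called, at -1.15 ± 0.16 (edgeR adjusted p = 2.7e-10), as did Ifitm3 at -2.44 ± 0.18.

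Among the genes with a larger step in stroke were the chemokines Ccl4, by 1.30 ± 0.17, and Ccl5, by 2.85 ± 0.45 (edgeR adjusted p = 6.1e-11 and 1.3e-07). Ccl4 was at 1689 and 767 CPM in stroke members and 172 and 209.9 CPM in sham members, against 307 and 285 CPM in stroke and 71.4 and 172 CPM in sham interferon-low cells. Ccl5 was at 40.8 and 150.5 CPM in stroke members and 54.0 and 0 CPM in sham members, and 1 cell held 71.4% of its female stroke UMIs. Without cells with markers of other immune cells neither was called. Pnp, a purine salvage enzyme, and Cd47, the signal that restrains phagocytosis, were called with and without those cells, at 0.95 ± 0.15 and 0.58 ± 0.14 with them. The other named genes were P4ha1 at 0.67, Lap3 at 0.77, Cryba4 at 1.12 and Itgam, which encodes CD11b, at 0.56. Without those cells these stood at 0.74, 0.91, 1.03 and 0.59 and none was called (edgeR adjusted p = 0.10, 0.074, 0.31 and 0.26). DESeq2 called none of the 8 genes, and without male sham edgeR called Pnp alone.

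Within interferon-high cells, stroke and sham were compared directly in a model with sex, which leaves 1 residual degree of freedom. Of 8170 genes 64 (0.783%) passed edgeR's adjusted p of 0.05, with 54 (0.661%) higher and 10 (0.122%) lower. Library totals called 165 higher and 235 lower, and leaving out the cells with markers of other immune cells gave 330 and 118, so these counts depend on the setting. The antiviral list had 0 of 44 called by edgeR, with 5 at an unadjusted p under 0.05, and 0 by DESeq2. Its median was 0.20, against -0.02 over all genes tested, and other settings called 0 to 6 higher and 0 to 1 lower. Library totals moved the median of all genes to -0.23. Stroke and sham were not tested against each other in interferon-low cells. In those cells both stroke pools were above both sham pools for 28 of 28 disease-associated genes, against 22 of 28 in members. Over all tested genes it was 30.9% in interferon-low cells and 30.2% in members. The genes below are therefore not shown to be particular to members.

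Among the genes higher in stroke members was Spp1, which was at 1019 and 1222 CPM in stroke members and 0 and 17.2 CPM in sham members, a log2 difference of 6.93 ± 0.47 (edgeR adjusted p = 0.0020) that rests on 4 UMIs in all sham members. Fn1, which encodes fibronectin, had 643 UMIs in stroke members and 0 in sham members, at least 23.2-fold higher against a floor of 3 counts over the sham members. The mitochondrial genes mt-Co2, mt-Co3 and mt-Atp6 differed by 2.02 ± 0.23, 1.99 ± 0.23 and 2.13 ± 0.25, beside the higher mitochondrial share of the stroke pools given above.

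Ch25h, which makes an antiviral oxysterol, was at 185 and 242 CPM in stroke members and 0 and 21.5 CPM in sham members, with 5 UMIs in all sham members. Stmn1, a tubulin-binding protein, was at 205 and 189 CPM in stroke members and 35.3 and 17.2 CPM in sham members. S100a9, a neutrophil transcript, was called too, but 1 cell held 97.4% of its UMIs in female stroke and 66.1% in male stroke. Ccl2 was higher by 1.91 ± 0.31 (edgeR adjusted p = 0.037).

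Of the 10 lower genes, Hpgd, which degrades prostaglandins, was at 171 and 158 CPM in stroke members and 378 and 487 CPM in sham members, a log2 difference of -1.39 ± 0.21 (edgeR adjusted p = 0.032). Txnip, a thioredoxin inhibitor, was at 186 and 185 CPM in stroke members and 388 and 431 CPM in sham members, at -1.14 ± 0.20. Rnase6, Ttr, Meg3, St8sia6 and Hist2h4 were also lower, the last 3 on 13 to 23 UMIs in all sham members, and Meg3 and Ttr mark neurons and choroid plexus. DESeq2 did not call Txnip, Rnase6, Ttr or Hist2h4 among these, nor Fn1 or Ch25h among the higher genes. Txnip was also not called without either stroke pool, nor Hpgd at an interferon score of at least 20.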

How the data were processed

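Single-cell RNA counts of 4 pools were used, 1 library per sex and treatment. The authors deposited UMI counts per gene and barcode for 32286 features, made with Cell Ranger 7.1.0 on mm10 per the submitters' processing notes and with cellranger 6.1.2 per the file headers. The sources used here do not say if introns were counted. No doublets were called or removed here. UMI counts were summed per pool and class, and edgeR 4.0.16 under R 4.3.3 fitted 3 models (class with pool as block, class by treatment, and sex plus treatment within interferon-high cells) with TMM scaling, the default filter, the quasi-likelihood test and Benjamini-Hochberg adjustment at 0.05. The SE is the log2 difference over the square root of F. The edgeR p-values rest on spread between pools, not mice, and that spread was shared across genes. Prior degrees of freedom were 215 against 3 residual for the classes and infinite against 2 for the step. Within interferon-high cells they were 7.53 against 1. A gene's own spread between pools thus hardly entered the p-values of the classes and the step, also where 1 cell held most UMIs. The 14 rule genes were left out of library sizes and tests. Fits were tested on simulated counts. DESeq2 1.42.0, library totals, other limits, thinning and left-out pools were alternatives. The 20 genes with the highest and 10 with the lowest log2 fold, called, alike in 4 pools and reaching 20 CPM, were named, with up to 8 in each direction, smallest p first, for the other fits. Members, lists and markers were chosen with earlier results of these data known. Gene positions came from GENCODE M21, which held 32235 of the features, and some genes are not analysed here.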

Additional observations from a re-analysis of the deposited data

Results flagged for a closer look

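The step between interferon-high and interferon-low cells differed between stroke and sham pools in 85 genes by edgeR's test of that difference. The log2 difference, stroke minus sham, is given here for the 16 with the smallest p, 8 in each direction. It was 1.30 for Ccl4, 2.85 for Ccl5, 0.95 for Pnp, 0.67 for P4ha1, 0.58 for Cd47, 0.77 for Lap3, 1.12 for Cryba4 and 0.56 for Itgam. It was -4.50 for Cd74, -4.21 for H2-Ab1, -5.24 for H2-Aa, -4.92 for H2-Eb1, -2.29 for Apoe, -1.99 for Lyz2, -2.40 for Ifitm3 and -1.85 for Ccl12. In male sham 1 interferon-high cell held 90.4% to 97.3% of the UMIs of the 4 class II genes, and another cell 62.4% of those of Apoe and 68.6% of those of Lyz2.

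Cells under the microglial score entered none of the fitted models, and those with choroid plexus or oligodendrocyte markers served only as background. Among all cells under the microglial score, stroke pools also held interferon-high cells above the sham level. Of these cells 123 of 1524 (8.07%) in female stroke and 51 of 903 (5.65%) in male stroke had an interferon score of at least 10, against 4 of 809 (0.494%) in female sham and 12 of 800 (1.5%) in male sham. Among those with monocyte markers the share was 11.1% and 9.75% in female and male stroke, against 7.69% and 5.56%, or 2 of 26 and 2 of 36 cells, in female and male sham. These values have no test across pools.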

How the results depend on the processing

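The cause of the moves below was not tested. For interferon-high against interferon-low cells (644 higher, 362 lower), counts were 110 and 15 without cells with other immune markers and 428 and 140 when Lag3 and Tcf4 were not counted as such, an alternative chosen after seeing the data. Lower calls were 57 with DESeq2, 593 with library totals and 223 after thinning. Leaving out a pool gave 398 to 784 higher and 103 to 272 lower. With treatment and sex in place of the pool block, 542 were higher and 192 lower. The labels give no replicate numbers, and the block is the pool that both classes share.

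For the step, stroke minus sham (11 higher, 74 lower), counts were 0 and 28 with DESeq2, 6 and 22 at a microglial score of 60, 5 and 45 with stricter quality limits, 7 and 37 after thinning, 0 and 4 without other markers, 3 and 23 with Lag3 and Tcf4 left aside, and 2 to 7 and 29 to 63 without a pool. At an interferon score of 5, 20 were higher. For stroke against sham within interferon-high cells (54 higher, 10 lower), counts were 13 and 3 at a score of 20, 671 and 346 at 5, 165 and 235 with library totals, 352 and 106 at a microglial score of 60, 336 and 66 with no filter, 186 and 66 with stricter limits, 304 and 93 after thinning, 330 and 118 with Lag3 and Tcf4 left aside, and 95 to 505 and 23 to 182 without a pool. It was 33 higher without other markers and 6 lower with DESeq2.

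Shares in female and male stroke, then female and male sham, were 11.4%, 13.6%, 1.64% and 1.78% at a score of 5, and 2.73%, 3.9%, 0.504% and 0.439% at 20. Thinning gave 8.43% and 9.67% in stroke. Without other markers they were 3.25% and 3.86% in stroke and 0.307% in male sham, and with Lag3 and Tcf4 left aside 4.11% and 5.67% in stroke.

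Between the classes, signs turned without other markers for Apoe (-0.44), C1qa (-0.13), Ccl3 (-0.13), Cxcl16 (-0.017), Icam1 (-0.18), Ifi30 (-0.028), Klf2 (-0.88), Lyz2 (-0.23), Rpl10a (-0.25) and Rps18 (-0.047), and without male sham for class II genes. Over left-out pools these ranged from -1.10 to 1.21 for Cd74, -2.42 to 1.11 for H2-Aa, -1.17 to 1.38 for H2-Ab1 and -1.95 to 1.18 for H2-Eb1. For the step they turned at a microglial score of 60 for Cd74 (1.30), H2-Aa (3.24), H2-Ab1 (3.34) and H2-Eb1 (2.96), without other markers for H2-Ab1 (7.17) and Lyz2 (0.68), with Lag3 and Tcf4 left aside for H2-Aa (0.38), H2-Ab1 (0.60) and H2-Eb1 (8.49), and without male sham for H2-Aa, which ranged from -6.09 to 0.65 over left-out pools. In 62 further cases the sign differed but neither fit called the gene, and these were counted as unchanged. Depth limits the sham side most, with 29 and 32 interferon-high cells.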

Other observations

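The replication genes of S phase were not called between interferon-high and interferon-low cells: edgeR called 0 of 19, with 3 at an unadjusted p under 0.05, and DESeq2 called 0. Over all tested genes edgeR called 4.95% higher and 2.78% lower, so a count of 0 in a list of this size says little about its members. Of 20 ribosomal protein genes 3 were higher, with Rpl10a and Rps18 each at 0.24 on the log2 scale and neither called with library totals. Of 23 immediate early genes 3 were higher and 2 lower, with Klf2 higher by 0.39. Jun differed by -0.34 and Jund by -0.30, and the heat shock genes Hspa1a and Hspa1b, at 2.03 and 3.67, were at or under 9.96 CPM in all interferon-high pools.

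The beta interferon gene Ifnb1 lay in few cells. In female stroke 31 of its 35 UMIs lay in 3 microglia with an interferon score from 2 to under 10, against 4 UMIs in interferon-high cells. In male stroke 7 of 8 UMIs lay in interferon-high cells, and 3 of the 4 female sham UMIs in 1 cell under the microglial score.

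Cycling microglia, which the rule leaves out, reached an interferon score of at least 10 in 55 of 784 cells (7.02%) in female stroke and 45 of 658 (6.84%) in male stroke, against 1 of 24 (4.17%) in female sham and 2 of 57 (3.51%) in male sham.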
